A study of Bos taurus with 2 samples.

Results

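Monocytes circulate in blood and become macrophages in tissue, and a short set of genes marks this lineage. The set described here holds CSF1R, CSF2RA, TYROBP, FCN1, LYZ, CST3, LGALS3, AIF1 and VCAN. Its probes were all non-control probes of a bovine oligonucleotide microarray that carry one of these 9 gene names, either as printed on the array or through the RefSeq accession given for the probe. Of 43653 probes on the array 14 met this rule, 11 by accession and 3 by the printed name, and they covered 8 of the 9 genes. No probe carried the name of CSF2RA, the alpha chain of the receptor for granulocyte-macrophage colony-stimulating factor, so this gene has no value here.

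The samples were 2 whole blood specimens of Holstein cattle (Bos taurus), 1 of low and 1 of high feed efficiency, each hybridised to 1 array. Low feed efficiency corresponds to high residual feed intake, which is feed eaten beyond what an animal's size and production call for. The labels give no age, sex or diet, name no treatment, and do not state whether a specimen came from a single animal or from a pool. With 1 array per group there is no SD between animals, no test and no p-value, and every difference below describes these 2 arrays.

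CSF1R is the receptor through which macrophage colony-stimulating factor (CSF1) and interleukin-34 keep monocytes and macrophages alive, and TYROBP, also called DAP12, is a membrane adaptor that passes the signal of several activating receptors to the kinase SYK. FCN1 and LYZ encode secreted defence proteins, a lectin that binds sugars on microbes and the enzyme lysozyme that cuts bacterial cell walls. CST3 encodes cystatin C, an inhibitor of cysteine cathepsins, LGALS3 the galactoside-binding lectin galectin-3, AIF1 a calcium-binding protein of the actin skeleton, and VCAN the matrix proteoglycan versican. Several of these genes are not private to monocytes: neutrophils make lysozyme, and natural killer cells and neutrophils also carry TYROBP.

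All 14 probes lay above background on both arrays. The cut was an intensity of 10.9 on either array, which is the median of 153 negative control spots plus 3 robust SDs. Intensity here means the median pixel of a spot in the green (Cy3) channel minus a constant background of 25. Of the 14 probes, 13 had spots that the scanner software flagged good on both arrays, and none had saturated pixels. Over the non-control probes the low efficiency array was the brighter one, with a 75th percentile of 98 against 81 on the high efficiency array. The 7 spike-in controls went the other way, with raw log2 ratios from -0.12 to -0.06. Each intensity was divided by its array's 75th percentile and taken to log2. The high efficiency value was then subtracted from the low efficiency one. This scaling lowers every raw log2 ratio by 0.27. Intensities of different probes are ranked or summed in places below. They are no measure of relative RNA amounts, because probes differ in how well they bind.

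None of the 8 measured genes was 2-fold apart, beside 0.958% of 10339 genes with a value that were (0.377% higher and 0.58% lower in low feed efficiency). None of the 14 probes was either, beside 1.04% of all detected probes. CSF1R and CST3 were lower in low feed efficiency at every one of their probes, and FCN1 at both of its probes, though unequally (-0.41 and -0.13). LYZ, LGALS3 and VCAN were higher by the probe that stood for the gene, TYROBP was nearly level, and AIF1 was lower by its single probe. The median over the 8 genes was -0.14, against -0.04 over all genes, and 4 of the 8 lay below the median of all genes, as 50% of all genes do. In RNA from whole blood, fewer cells of a type and less RNA per cell cannot be told apart.

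**Figure D1:**
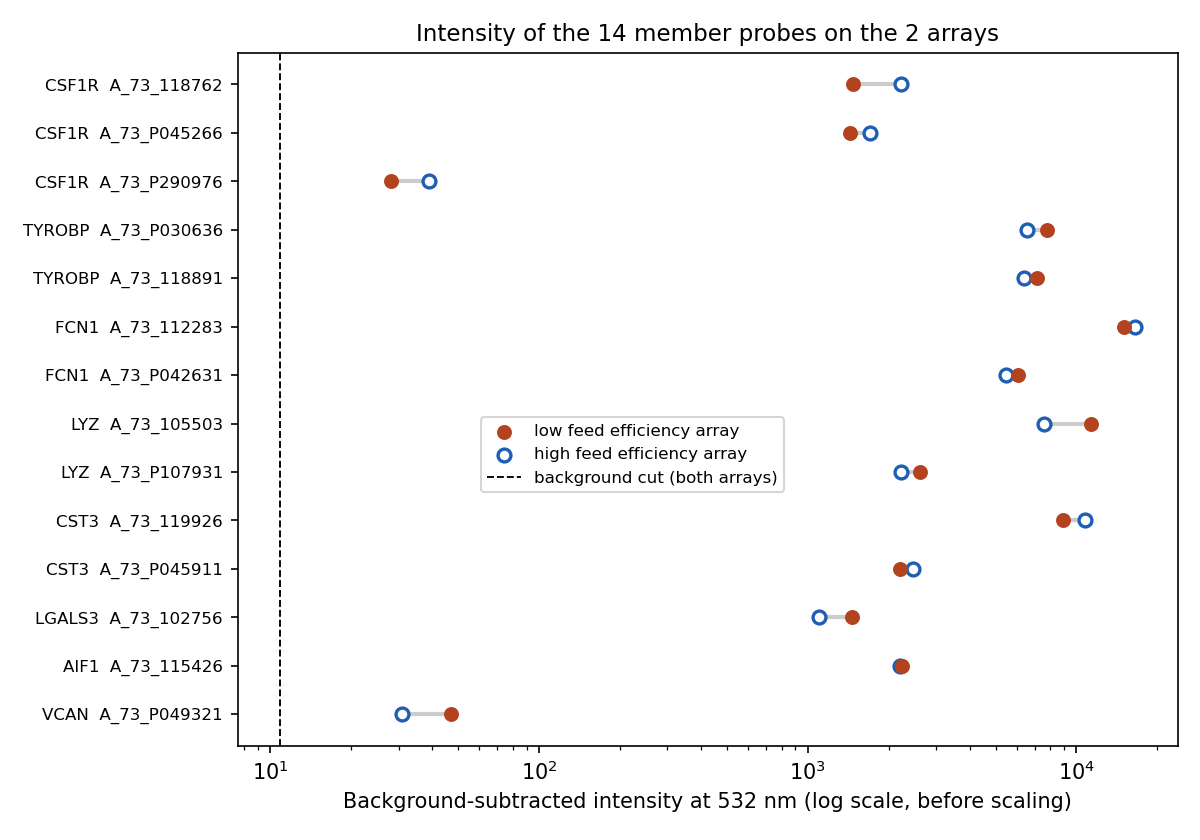
Background-subtracted intensity of each of the 14 probes, on a log axis and before scaling, with filled points for the low feed efficiency array and open points for the high feed efficiency array; the dashed line is the background cut of 10.9. For CSF1R and CST3 every filled point lies left of its open point, while 8 of the 14 probes were brighter on the low efficiency array.

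A pair of error estimates that needs no further animals sets the scale for these values. Replicate spots of one probe had an SD of the log2 difference of 0.10 over 12 bright probes and 0.23 over 24 dim ones, bright meaning above the median signal of genes. Different probes of one gene had a pooled SD of 0.25 over 4995 genes, and of 0.15 over the 1018 genes whose probes were all bright. Neither covers the spread between animals. The SD between probes of one gene holds measurement error together with any difference between the transcripts that the probes detect. Over the 5169 genes brighter than the median gene, the differences had a median of -0.07 and their central 95% ran from -0.56 to 0.42; for the 5170 other genes they ran from -0.72 to 0.70.

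CSF1R had the largest difference of the set. Its brightest probe, A_73_118762, read 1475 on the low efficiency array and 2214 on the high efficiency array, and the pixels of these spots had SDs of 383 and 341. After scaling the difference was -0.86, so that the gene was 1.82-fold lower in low feed efficiency, or 8.60 times the SD of bright replicate spots. The second probe, A_73_P045266, read 1437 against 1708, a difference of -0.52. The third, A_73_P290976, read 28 against 39, a difference of -0.75, close to the background cut. All 3 probes thus pointed the same way, over a range of 0.34.

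The array annotates these probes to different transcript records of CSF1R. A_73_P045266 is listed with both Ensembl transcripts of the gene, ENSBTAT00000016977 and ENSBTAT00000042906, A_73_118762 only with the second and A_73_P290976 only with the first. Of all genes, 97 had a difference as low as that of CSF1R or lower, which is 0.938%. Among genes brighter than the median gene there were 15 of 5169, or 0.290%. CSF1R was the single member at least 1.5-fold apart, beside 5.86% of all genes, of which 2.72% were higher and 3.14% lower. Of the brighter genes 2.05% were at least 1.5-fold lower, and 0.31% were at least 2-fold apart.

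TYROBP did not separate the arrays. Its probe A_73_P030636 read 7794 on the low efficiency array and 6532 on the high efficiency array, and A_73_118891 read 7140 against 6387. Both raw readings were higher on the low efficiency array, by no more than that array as a whole. The scaled differences were -0.02 and -0.11, the first well within the replicate spot SD of 0.10 and the second about equal to it. Their sign depended on the setting: the first was above 0 under 6 of 8 settings and the second under 5 of 8.

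Of the secreted defence proteins, FCN1 was lower in low feed efficiency at both probes, while the probes of LYZ disagreed. FCN1 read 14978 on the low efficiency array and 16485 on the high efficiency array at A_73_112283, a difference of -0.41, or 4.13 times the replicate spot SD. At A_73_P042631 it read 6062 against 5489, where the raw reading was higher in low feed efficiency and the scaled difference was -0.13. This second value turned positive with spike-in scaling (0.21), quantile normalization (0.02) and in the authors' deposited table (0.02). With spike-in scaling the median of all genes was 0.30. The 2 FCN1 probes lay 0.28 apart, more than the SD of 0.15 between bright probes of one gene. The array describes A_73_112283 as ficolin-2, and the gene table lists FCN2 and FCNB as synonyms of bovine FCN1, so both probes were assigned to one gene.

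LYZ read 11367 on the low efficiency array and 7550 on the high efficiency array at A_73_105503, a difference of 0.32, or 1.24-fold higher. The spot of this probe on the low efficiency array was the single member spot not flagged good by the scanner software, and its pixel median of 11367 stood above its pixel mean of 10767. Other member spots shared the latter trait, among them the brighter FCN1 probe on the same array (14978 against 14747). At A_73_P107931, flagged good on both arrays, LYZ read 2606 against 2230, a difference of -0.05. The probes differed by 0.37, more than the 0.15 SD between bright probes of one gene, and no direction can be given for LYZ as a gene.

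Cattle carry several lysozyme genes besides LYZ, some of which serve digestion in the stomach, and LYSB, LYZ2 and LYZ3 lie beside LYZ in the gene table. Of 13 probes named for 6 such relatives, 4 were above background on both arrays. LYZ2 read 1736 on the low efficiency array and 1289 on the high efficiency array, a difference of 0.15. LOC781146 read 922 against 690 (0.14) and 63 against 46 (0.18) at its 2 detected probes, and LOC781349, printed as LYZ1 on the array, read 235 against 202 (-0.06). Of these 4 differences 3 were above 0, and none was as large as that of the brighter LYZ probe. Whether the probes separate these related transcripts was not tested, so signal may be shared among them.

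CST3 was the second of the set by size. Its probe A_73_119926 read 8880 on the low efficiency array and 10746 on the high efficiency array, a difference of -0.55, or 1.46-fold lower. At A_73_P045911 it read 2195 against 2454, a difference of -0.44. The probes lay 0.11 apart, within the SD of 0.15 between bright probes of one gene, and the larger value was 5.50 times the replicate spot SD. Both were below 0 even before scaling, which held otherwise only for CSF1R and for the brighter probe of FCN1. Of all genes 3.94% had a difference as low or lower.

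The 3 remaining genes had 1 probe each. LGALS3 read 1461 on the low efficiency array and 1099 on the high efficiency array, a difference of 0.14, which 20.2% of the brighter genes reached or exceeded. AIF1 read 2238 against 2212, almost the same intensity before scaling, and its scaled difference was -0.26. With spike-in scaling it was 0.08, where the median of all genes was 0.30. Relative to the median of all genes, AIF1 stayed below 0 under all 12 alternatives, from -0.23 to -0.11. VCAN, the one dim gene of the set, read 47 against 31 at a pixel variation of 30.6% and 30.4% of the median before background subtraction. Its difference of 0.33 was 1.40 times the SD of dim replicate spots and was 0.04 with normexp background correction. By name none of these 3 genes has a second probe. A probe outside the rule that is described as a piece of the versican core protein read 172 in low against 142 in high efficiency, a difference of 0.002, and did not repeat the 0.33 of VCAN.

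**Figure D2:**
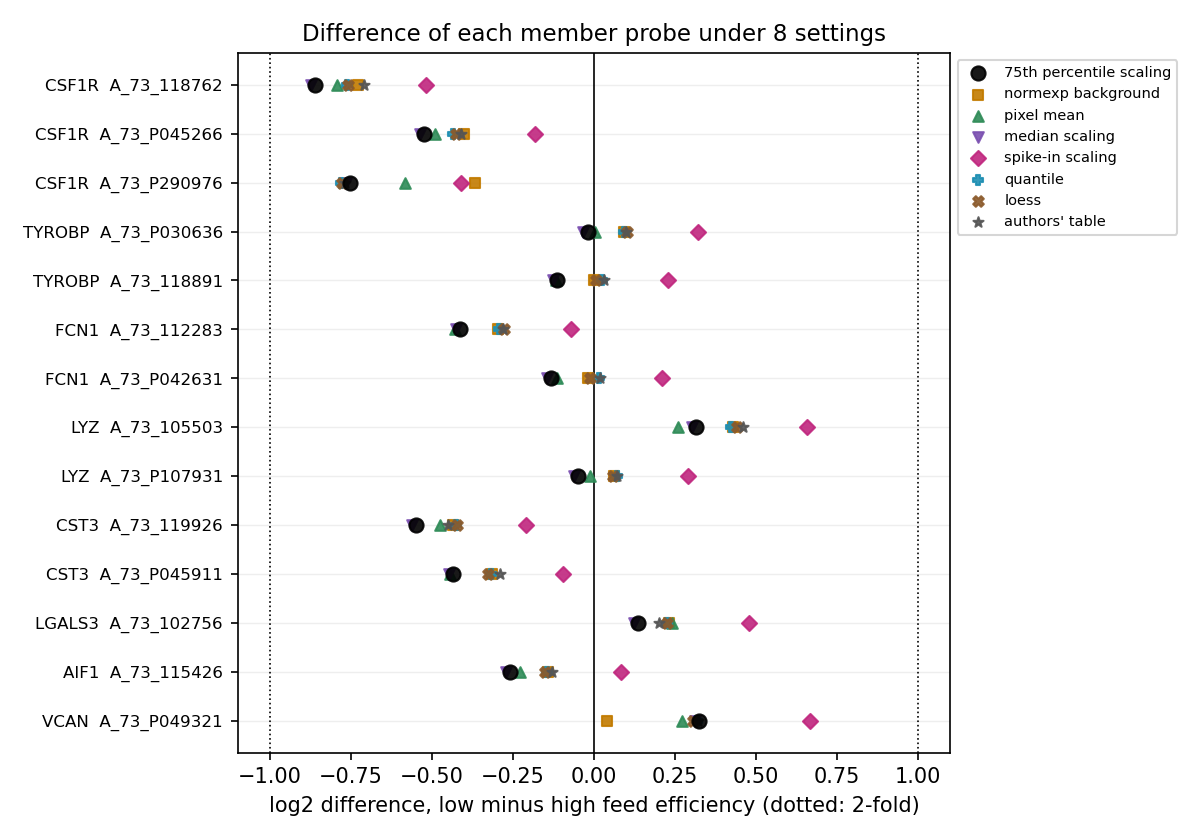
Log2 difference (low minus high efficiency) for each of the 14 probes under 8 settings, with the reported setting as black circles and the dotted lines at 2-fold. All 3 CSF1R probes, both CST3 probes and the brighter FCN1 probe stay left of 0 under every setting drawn, the brighter LYZ probe, LGALS3 and VCAN stay right of it, and the other 5 probes fall on both sides.

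Of the 5 members with several probes, 4 had every probe below 0, which was so for 32.7% of the 4995 genes with several probes. The 4 were CSF1R, TYROBP, FCN1 and CST3, of which TYROBP and the dimmer FCN1 probe crossed 0 under other settings. As the mean over probes CSF1R had -0.71, CST3 -0.49, FCN1 -0.27, TYROBP -0.07 and LYZ 0.13. The order of CSF1R, CST3 and FCN1 was therefore the same whether the brightest probe or the mean was taken.

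**Figure D3:**
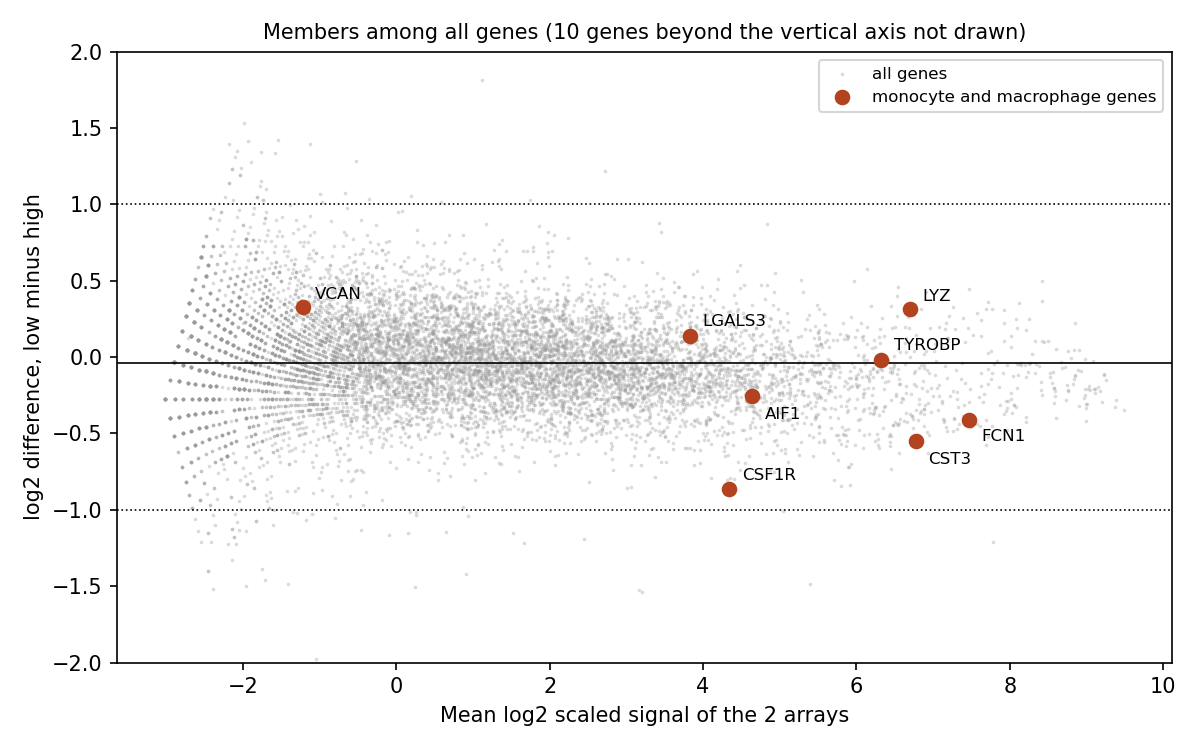
Log2 difference (low minus high efficiency) against the mean log2 scaled signal of both arrays, for all 10339 genes (grey) and the 8 measured members (red), with the median of all genes at -0.04 as a solid line; 10 genes lie beyond the vertical axis. CSF1R at -0.86 and CST3 at -0.55 sit at the lower edge of genes of like signal, and VCAN is the one member in the dim, widely scattered range.

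Other genes of the members' pathways were taken as 6 lists of 95 genes in all, of which 66 had a value. None was 2-fold apart, 31 lay above and 35 below the median of all genes, and their median was -0.09. In the growth factor list 4 of 10 genes had a value, 2 on either side of the median of all genes. By the probes named for them, the ligands of CSF1R were close to background: IL34 read 35 on the low efficiency array and 38 on the high efficiency array (-0.39), while CSF1 read 16 against 9, above background in low feed efficiency only. CSF2RB, the beta chain that pairs with the CSF2RA protein, read 7 against 4, below background on both arrays, whereas CSF2RA had no probe. Neither chain of that receptor thus has a value here. CSF3R, the granulocyte colony-stimulating factor receptor of neutrophils, had 3175 against 2441, a difference of 0.10.

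Of the genes around the adaptor TYROBP, 9 of 11 had a value, 4 above and 5 below the median of all genes. CD300LB, a receptor of the CD300 family, was farthest from 0 with 0.69 (336 in low against 172 in high efficiency, 1 probe), and it stayed between 0.61 and 1.03 under the 12 alternatives. The kinase gene LYN, the brightest of the list, read 9383 against 7592, a difference of 0.03. Myeloid transcription factors all had a value, 8 of 12 below the median of all genes, at a list median of -0.14. CEBPB had -0.70 (1134 against 1527), but its 3 detected probes ran from -0.70 to -0.08. SPI1, which encodes PU.1, the master regulator of the myeloid lineage, had -0.12 at 12256 against 10990, and its 3 probes ran from -0.12 to 0.03.

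Surface and scavenger receptors had 8 of 11 measured genes above the median of all genes. Their list median was 0.11, and -0.04 with normexp background correction. CD163, SIGLEC1, CCR2, SIRPA and CLEC4E, named here after their values were seen and all above 0, were dim. The 3 genes below the median of all genes, CD14 (-0.12), CX3CR1 (-0.15) and CD68, were all brighter than these. FCGR3A, an IgG receptor, had 0.15 (1196 in low against 892 in high efficiency), and CD68, a lysosomal membrane protein of macrophages, had -0.31 (732 against 749), with 0.03 under spike-in scaling. Lysosomal and secreted products had 13 of 17 measured genes below the median of all genes and a list median of -0.23, against -0.07 for genes brighter than the median gene. C1QC, a chain of complement C1q, which macrophages make, had -0.51 (932 against 1100), and S100A4, the brightest of the list, -0.14 (15310 against 13951). Relatives and partners of the lectins, cystatins, lysozymes and versican had 9 of 13 above the median of all genes at a list median of 0.04. SELP had -0.57 in this list (386 against 472). Spike-in scaling shifted the median of all genes by 0.34 and made all 6 list medians positive; relative to all genes the transcription factor and lysosome lists stayed below 0 under all 12 alternatives.

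**Figure D4:**
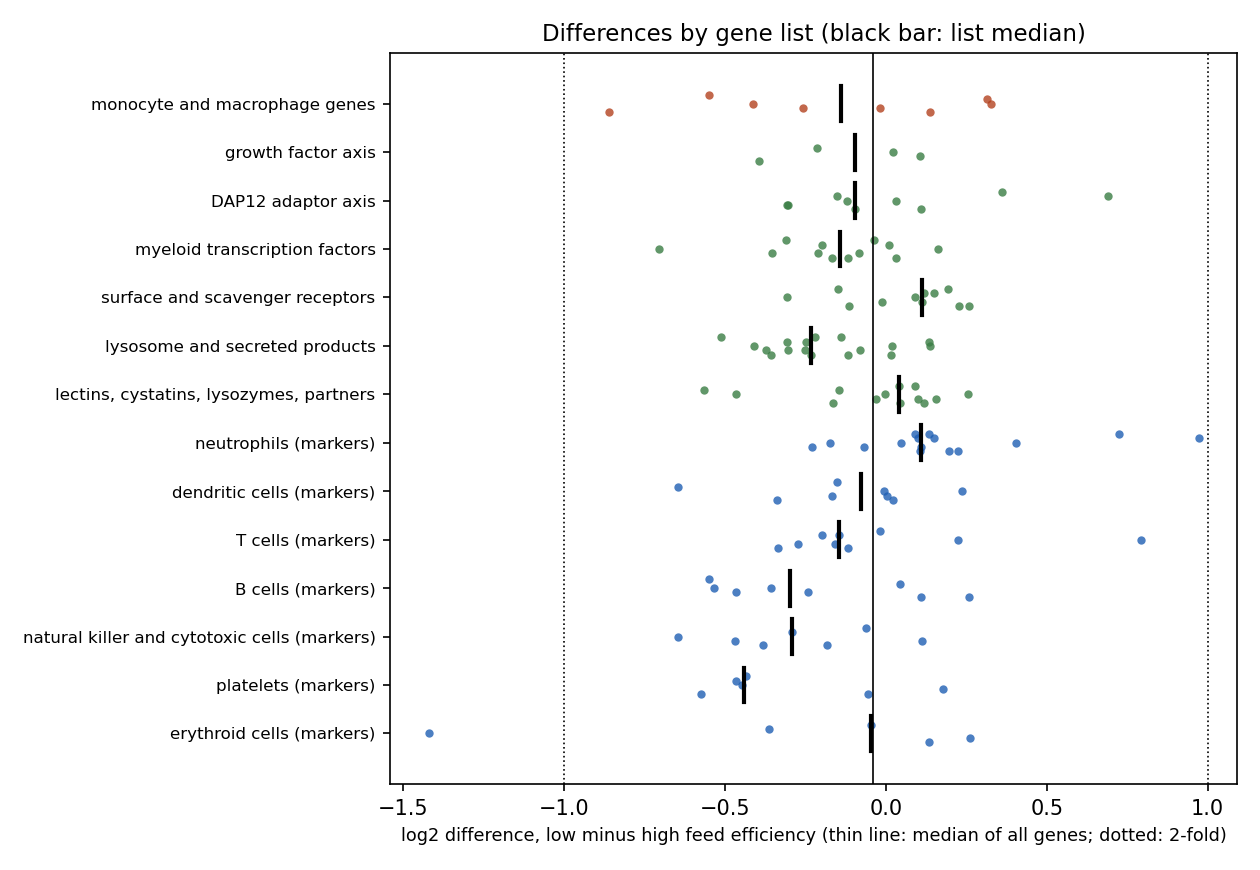
Log2 differences (low minus high efficiency) for each gene with a value (points) and the list median (black bars), for the monocyte and macrophage genes, 6 lists of companion genes and 7 lists of other cell types' markers; the thin line is the median of all genes at -0.04 and the dotted lines mark 2-fold. The members spread from -0.86 to 0.33, with a median of -0.14.

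Of 7 further monocyte markers outside the set, 6 had a value, 4 of them below the median of all genes, and their median was -0.13. CD14, the co-receptor for endotoxin that defines classical monocytes, read 668 on the low efficiency array and 598 on the high efficiency array, a difference of -0.12 with its 3 probes between -0.32 and -0.12. CX3CR1, a chemokine receptor, had -0.15 (690 against 632). Both, picked after their values were seen, turned positive under spike-in scaling, as did the median of all genes, at 0.30. FCGR1A read 64 against 4, above background in low feed efficiency only. The defining markers CD14 and CSF1R were thus far above background on both arrays.

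The other blood cells in these specimens have marker lists of their own. Neutrophil markers had 12 of 15 measured genes above the median of all genes and a median of 0.11, and natural killer and cytotoxic markers had 6 of 7 below it and a median of -0.29. Summed over the genes with a value, the scaled intensity of neutrophil markers was 932 in low and 829.6 in high feed efficiency. That of natural killer and cytotoxic markers was 123 against 155, and that of the 8 monocyte and macrophage genes 492 against 579. Such sums weigh each gene by how well its probe binds, so a few bright probes set them, and they are no measure of the cells present. In the sum of the 8 genes FCN1 (153 against 204) and CST3 (90.6 against 133) were lower in low feed efficiency and LYZ (116 against 93.2) was higher. Dendritic cell markers had 4 of 8 on either side, with XCR1 and ZBTB46 below background on both arrays. T cell markers had 6 of 9 below the median of all genes, B cell markers 5 of 8, platelet markers 5 of 6 and erythroid markers 3 of 5. Their sums in low against high feed efficiency were 29.3 against 30.1 for dendritic cells, 107 against 121 for T cells, 68.5 against 73.1 for B cells, 138 against 152 for platelets and 342 against 309 for erythroid cells. The erythroid sum was higher through the globin probes HBA (26648 against 20058) and HBB (6549 against 4517). ALAS2, the first enzyme of haem synthesis in red cell precursors, went the other way with -1.42 (112 against 248, 1 probe), the one marker in these lists at least 2-fold apart, and AHSP, a chaperone of alpha globin, had -0.36 (94 against 100). Under spike-in scaling, where the median of all genes was 0.30, every marker list median was positive except that of platelets, at -0.10. Relative to all genes, the medians of T cell, B cell, natural killer and cytotoxic, platelet and erythroid markers stayed below 0 under all 12 alternatives. That of dendritic cells was below 0 under 9 of them, and that of neutrophils stayed above 0. The part of these marker differences in the values of LYZ, TYROBP, CSF1R and CST3 was not tested.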

How the data were processed

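Cy3-labelled RNA of each specimen was hybridised to an Agilent bovine array. The deposited intensity values were written by GenePix Pro 6.1.0.4 without normalization, per the file headers; Agilent Feature Extraction is named in the submitters' processing notes. The percent of saturated pixels and the flag score (100 good, 0 unflagged, -50 not found) are likewise as deposited by the authors. Both arrays lay on 1 slide and were scanned together, per the file headers. The authors' deposited log2 table matched the scanner values after a move by 1 row (rho 1.00 on either array, against 0.08 in low and 0.07 in high efficiency as deposited); no source used here gives its normalization.

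Spots flagged not found although above the cut were left out (408 and 283), which kept 43096 probes. Intensities were averaged over the spots of a probe, then divided by each array's 75th percentile over probes and taken to log2. A gene took the brightest of its probes that passed the cut on both arrays. Above background were 24329 of the kept probes (56.5%) in low and 22718 (52.7%) in high efficiency. The number of arrays limits the precision. Names came from RefSeq accessions, symbols or synonyms in the ARS-UCD2.0 gene table. Members, lists and tests were chosen with earlier results of these data known. All members were named; of each companion list the gene farthest from 0 and the brightest were named, and others are said to be picked; the brightest gene of the lectin list is not reported here. Calculations used Python 3.11.15, pandas 2.3.3 and limma 3.58.1 (normexp with offset 50, quantile, loess with span 0.3) and were tested on simulated data. Alternatives are given in the closing section. No sequences were used here.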

Additional observations from a re-analysis of the deposited data

How the results depend on the processing

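Each value was recomputed under 12 alternatives, 7 of which kept the probe and changed its background correction, scaling or source. No member was 2-fold apart under any of them. At a threshold of 1.5-fold the count of members apart was 1 (CSF1R), and at 4-fold it was 0. The member median of -0.14 was 0.20 with spike-in scaling, -0.026 with quantile normalization, -0.024 with loess and -0.015 in the authors' deposited table; the companion median of -0.09 was 0.25 with spike-in scaling. Relative to all genes, the member median was -0.10 as reported and ran from -0.13 to -0.005 over the 12 alternatives. CSF1R ran from -0.87 to -0.52, CST3 from -0.56 to -0.21 and FCN1 from -0.43 to -0.07, all below 0 under all 12, while LYZ ran from -0.05, where only spots flagged good were used, to 0.66. TYROBP ran from -0.07 to 0.32 and AIF1 from -0.27 to 0.08. Of the values of single members under an alternative, 60 moved by less than the replicate spot SD and 36 by more. With no filter on dim probes, 877 genes were 2-fold higher and 919 lower over all genes, in place of 39 and 60; with spike-in scaling 186 and 20, with normexp 5 and 11, with only good spots 7 and 17, with the cut raised 2 times 13 and 30, and with the mean over probes 28 and 52. The spike-in shift of 0.34 rests on 7 controls. Signal near background limits VCAN and the dim CSF1R probe. No paired analysis was possible because each group has 1 array.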

Other observations

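Complement C1q, built from 3 chains that monocytes and macrophages make, was lower in low feed efficiency at all 6 of its probes, a group picked after its values were seen. Counted by gene, every probe was below 0 for 32.7% of all genes with several probes, bright and dim together. That share does not cover C1QC, which has 1 probe. C1QA read 2901 in low against 3189 in high efficiency (-0.41, other probe -0.51), C1QB read 1277 against 1305 (-0.31, with its 3 probes between -0.42 and -0.31), and C1QC had -0.51 as given above. C1QA and C1QC stayed below 0 under all 12 alternatives. C1QB was 0.04 with spike-in scaling, where the median of all genes was 0.30. The lysosomal genes GRN, for progranulin, and PSAP, for prosaposin, had -0.36 (10876 against 11526, with 4 probes between -0.36 and -0.27) and -0.37 (2235 against 2394, both probes at -0.37). The C1q genes, GRN and PSAP read like CSF1R and CST3 in direction, but GRN and PSAP too were picked after their values were seen. Of the 17 measured genes of the lysosomal and secreted list, 4 lay above the median of all genes. Among those were CTSZ at 0.13 and THBS1 at 0.14. Whether any of these genes differ between animals of low and high feed efficiency cannot be judged from 1 array each.

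Of probes without a gene name on the array, the probe described as a piece of macrophage colony-stimulating factor beta read 1344 in low against 1013 in high efficiency, a difference of 0.13, whereas the 3 probes named CSF1 did not lie above background on both arrays. This unnamed probe was not matched to a transcript here.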
